A study of Mus musculus with 6 samples.

Results

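The 10 genes described here encode ligands, receptors and a feedback inhibitor of transforming growth factor-β (TGF-β) and bone morphogenetic protein (BMP) signalling, and were chosen by symbol from the 20066 genes of the table. They are the TGF-β ligands *Tgfb1*, *Tgfb2* and *Tgfb3*, the activin subunit gene *Inhba*, the BMP ligands *Bmp2*, *Bmp4* and *Bmp10*, the TGF-β receptors *Tgfbr1* and *Tgfbr2*, and the inhibitory *Smad7*. Each was present once, and all 10 were tested without a filter on low values. RNA came from cardiomyocytes (CMs) of newborn (P0-1) C57BL/6 mice with no engineered allele. For 96 h the cultures received either a cell-permeable form of the Krebs cycle metabolite α-ketoglutarate (αKG) or the solvent dimethylsulfoxide (DMSO), with 3 libraries in each group. Per the labels αKG was added at 100 μM, whereas the methods of the study name a higher concentration of its octyl ester for cultured cells. For its cell counts the study took each isolation from pooled neonatal hearts as a sample. The labels do not say whether the libraries were separate isolations, so that p-values measure the spread between these libraries, which may be technical.

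Ligands of this family are secreted dimers that join type I and type II serine/threonine kinase receptors on the cell surface. TGF-βs and activins lead to phosphorylation of Smad2 and Smad3, and BMPs to that of Smad1, Smad5 and Smad9. Phosphorylated Smads bind Smad4 and move to the nucleus, where they regulate genes that include the inhibitory Smads. In the heart, TGF-β ligands are known for their part in valve formation and in matrix production by fibroblasts, whereas BMP ligands take part in early specification and growth of the myocardium.

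Values are normalized read counts, which are reads per gene divided by a size factor of each library and rounded. The estimated reads in genes lay between 3726069 and 4427587 per library. Genes of cardiomyocytes were abundant in every library, with *Tnnt2* between 2812 and 3681. αKG replicate 3 stood apart from its group. Its log2 values correlated across genes at 0.9616 and 0.9632 with those of the other αKG libraries and at 0.9774 to 0.9802 with those of the DMSO libraries. DMSO replicates 2 and 3 differed over all genes by no more than sampling noise (chi-square of 1.016 per gene, p = 0.103, across 13077 genes), but 16 genes differed between them after Benjamini-Hochberg adjustment, among them the proliferation gene *Mki67* at 2034 and 1601. They were therefore kept as separate samples, although this does not show that they were separate isolations. The results with their average are given for *Inhba* and *Tgfb3*, whose calls were lost with it.

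Of the 10 genes, *Inhba* and *Tgfb3* passed an adjusted p of 0.05 in a fit by limma across all genes, and both were higher in αKG. Among all 20066 genes 3.78% passed, 2.83% higher and 0.952% lower. Among genes with a mean of at least 100, as 8 of the 10 have, 5.96% passed. The median log2 fold change of the 10 genes was 0.28, against 0.04 over all genes. The αKG libraries lay above every DMSO library in *Tgfb2*, *Tgfb3*, *Inhba* and *Bmp10* and below every DMSO library in *Tgfb1*, whereas the groups overlapped in the other 5 genes. Thus 5 of the 10 did not overlap, where 28.3% of all genes did not, 13.7% higher and 14.6% lower.

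**Figure D1:**
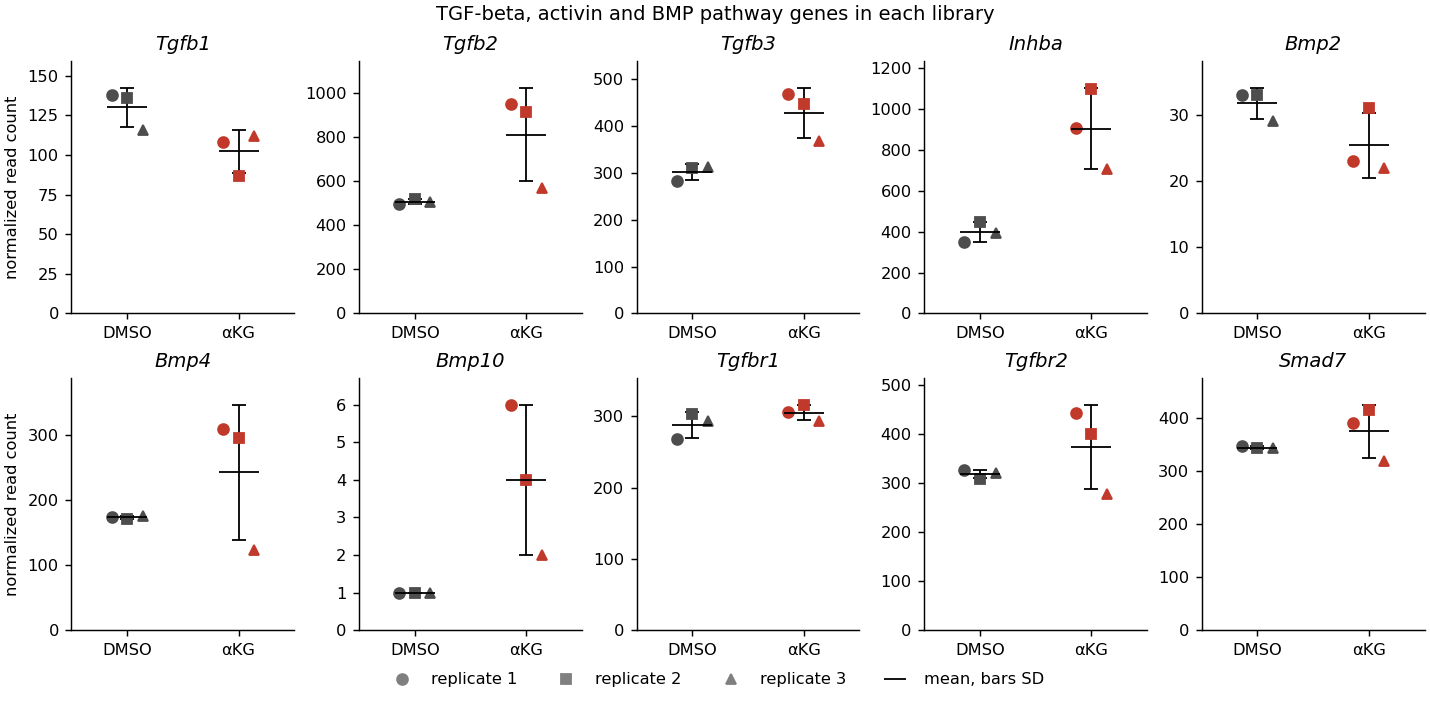
Normalized read counts (vertical axes, from 0) of the 10 genes in the 3 DMSO (grey) and 3 αKG (red) libraries; marker shapes give the replicate number and bars the mean and SD. In *Inhba* all αKG libraries, at 705 to 1101, lay above the DMSO libraries, at 350 to 447, whereas in *Bmp4* αKG replicate 3, at 123, lay below the DMSO range of 171 to 175.

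The promoters of *Inhba* and *Tgfb2* are shown because these genes had the highest mean counts of the 10 and lay higher in every αKG library. Each line gives the 250 bases before the transcription start in the RefSeq annotation of GRCm38.p6, 5′ to 3′ on the strand of the gene. Capitals mark the Smad-binding sequence CAGAC or the core of the cAMP response element, TGACG, which reads CGTCA on the opposite strand.
*Inhba*, chr13:16011601-16011850, plus strand: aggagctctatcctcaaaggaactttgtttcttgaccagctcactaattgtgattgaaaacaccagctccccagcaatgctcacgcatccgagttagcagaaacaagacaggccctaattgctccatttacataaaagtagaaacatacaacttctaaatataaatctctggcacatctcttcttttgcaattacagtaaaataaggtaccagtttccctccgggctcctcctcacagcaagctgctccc
*Tgfb2*, chr1:186705990-186706239, minus strand: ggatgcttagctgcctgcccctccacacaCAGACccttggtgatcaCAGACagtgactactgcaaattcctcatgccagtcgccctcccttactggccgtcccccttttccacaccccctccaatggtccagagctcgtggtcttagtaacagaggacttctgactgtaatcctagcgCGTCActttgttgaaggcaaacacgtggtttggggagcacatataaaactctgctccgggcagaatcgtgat
The *Tgfb2* window held CAGAC at -221 to -217 and at -204 to -200 and TGACG at -72 to -68, counted from the start site. Both strands were searched, also for GTCTAGAC, GGCGCC, TGACGTCA (which contains TGACG) and the AP-1 motif TGANTCA, and the *Inhba* window held none of the 6 motifs. Of 32851 promoter windows of this length, 42.2% held CAGAC, 17.8% TGACG, 6.75% TGANTCA, 9.59% GGCGCC, 1.55% TGACGTCA and 0.167% GTCTAGAC. These are matches of letters, and binding was not measured.

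*Inhba*, which encodes the βA chain that forms activin A as a homodimer (ENSMUSG00000041324, chromosome 13, 16011851 to 16031621, plus strand, GRCm38), rose most among the 2 genes that passed. It had 350, 447 and 396 normalized counts in the DMSO libraries against 910, 1101 and 705 in the αKG libraries, each in the order of replicates 1 to 3, as in all values that follow. All αKG libraries were thus above all DMSO libraries, and αKG replicate 3 was the lowest of them. The mean rose from 397.7 ± 48.5 to 905 ± 198 (SD, n = 3 each), or by 1.17 ± 0.15 on the log2 scale (SE, adjusted p = 0.00778 by limma), where the scale is log2(count + 1). On that scale the αKG libraries were 1.20, 1.47 and 0.83 above the DMSO mean. The call was lost without DMSO replicate 1, 2 or 3 (limma adjusted p = 0.0547, 0.132 and 0.157), without αKG replicate 1 or 2 (0.23 and 0.255), with the average of DMSO replicates 2 and 3 (0.0793) and without a variance trend (0.109). The log2 fold change lay between 1.02 and 1.34 over its 16 alternatives.

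Other activin genes differed in level. *Inhbb*, which encodes the βB chain, had 56, 43 and 40 counts in DMSO and 77, 83 and 94 in αKG. It was higher in every αKG library, highest in replicate 3, and passed at 0.87 ± 0.19 on the log2 scale (adjusted p = 0.0424 by limma), but not in 12 of 16 alternatives. *Inha*, whose product pairs with the β chains to form inhibins, had 19, 15 and 16 counts in DMSO and 20, 21 and 16 in αKG. Its groups overlapped and it did not pass.

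Of the 3 TGF-β ligands, *Tgfb3* alone passed. *Tgfb3* (ENSMUSG00000021253, chromosome 12, 86056745 to 86079041, minus strand) had 282, 310 and 312 counts in DMSO and 469, 446 and 367 in αKG, with no overlap between groups. It rose from 301.3 ± 16.8 to 427 ± 53.5 (SD, n = 3 each), or by 0.50 ± 0.11 on the log2 scale (SE, adjusted p = 0.0424 by limma). This call lay close to the threshold and was lost in 10 of 16 alternatives. Among them was each fit without DMSO replicate 1, 2 or 3 or αKG replicate 1 or 2 (limma adjusted p = 0.175, 0.222, 0.24, 0.231 and 0.259). The average of DMSO replicates 2 and 3 was another (limma adjusted p = 0.189). The log2 fold change itself stayed between 0.43 and 0.63.

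*Tgfb2*, the TGF-β ligand with the highest count (ENSMUSG00000039239, chromosome 1, 186622792 to 186705989, minus strand), had 497, 521 and 506 counts in DMSO and 953, 915 and 569 in αKG. All αKG libraries lay above the DMSO range, but αKG replicate 3 by only 0.16 on the log2 scale against 0.91 and 0.85 in replicates 1 and 2. With means of 508 ± 12.1 and 812 ± 212 (SD, n = 3 each), the log2 fold change of 0.64 ± 0.17 (SE) did not pass (limma adjusted p = 0.0609). Without αKG replicate 3 it was 0.88 and passed (limma adjusted p = 0.000275).

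*Tgfb1*, the most widely expressed of the 3 ligands across tissues, had a lower mean in αKG (ENSMUSG00000002603, chromosome 7, 25687002 to 25705077, plus strand). Its counts were 138, 136 and 116 in DMSO and 108, 87 and 112 in αKG, so that each αKG library lay below each DMSO library by a narrow margin. The means were 130 ± 12.2 and 102 ± 13.4 (SD, n = 3 each), and the log2 fold change of -0.35 ± 0.15 (SE) did not pass (limma adjusted p = 0.16) and passed in none of 16 alternatives. Per exon length *Tgfb1* made up 13.9, 12.9 and 11.4% of the summed count of the 3 ligands in DMSO and 6.6, 5.6 and 9.7% in αKG. The share was lower in every αKG library, in which *Tgfb2* and *Tgfb3*, part of the sum, were also higher. A two-sided exact permutation test gave p = 0.1, the smallest that 3 against 3 libraries allow, so that it could not fall under 0.05. For *Tgfb2* and *Tgfb3* the shares overlapped, with exact permutation p = 0.4 and 0.8 in the same 3 comparisons, which were not adjusted.

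The BMP ligands did not pass. *Bmp4*, a ligand of early mesoderm and of the outflow tract (ENSMUSG00000021835, chromosome 14, 46383520 to 46390669, minus strand), had 174, 171 and 175 counts in DMSO and 309, 295 and 123 in αKG. αKG replicates 1 and 2 were thus above the narrow DMSO range, by 0.83 and 0.76 on the log2 scale, and αKG replicate 3 was below it, by 0.49. The log2 fold change over all libraries was 0.37 ± 0.29 (SE, 95% interval -0.29 to 1.02, limma adjusted p = 0.43), and without αKG replicate 3 it was 0.80 (limma adjusted p = 0.0007). The direction in αKG replicate 3 was opposite to that in the other αKG libraries.

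*Bmp2*, which acts in formation of the atrioventricular canal, was low, with 33, 33 and 29 counts in DMSO and 23, 31 and 22 in αKG (-0.32 ± 0.24 on the log2 scale, 95% interval -0.86 to 0.21, limma adjusted p = 0.395). It passed in none of 16 alternatives. *Bmp10*, a cardiac ligand of trabecular and later atrial myocardium, was close to the limit of detection, with 1, 1 and 1 counts in DMSO and 6, 4 and 2 in αKG. This corresponds to an estimated 3 reads in all DMSO and 12 in all αKG libraries. The ratio corrected for depth was 4.39 with an exact 95% interval of 1.19 to 24.3, which covers counting error only, and *Bmp10* did not pass (limma adjusted p = 0.136) except without αKG replicate 3 (0.0207).

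The TGF-β receptor genes did not pass. *Tgfbr1*, the type I receptor (ALK5), had 268, 304 and 293 counts in DMSO and 306, 316 and 294 in αKG, with overlapping groups. Its log2 fold change was 0.08 ± 0.09 (SE), with a 95% interval of -0.12 to 0.29 (limma adjusted p = 0.566), and it passed in none of 16 alternatives. *Tgfbr2*, the type II receptor that binds the ligand first, had 327, 309 and 320 counts in DMSO and 443, 401 and 277 in αKG. As in *Bmp4*, αKG replicates 1 and 2 lay above the DMSO range and replicate 3 below it. The log2 fold change was 0.20 ± 0.15 with a 95% interval of -0.14 to 0.55 (limma adjusted p = 0.409), and without αKG replicate 3 it was 0.40 (limma adjusted p = 0.00533).

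*Smad7*, the inhibitory Smad that TGF-β signalling itself induces, had 346, 343 and 342 counts in DMSO and 389, 415 and 318 in αKG. The DMSO libraries were almost equal, αKG replicates 1 and 2 above and αKG replicate 3 below them. The log2 fold change was 0.11 ± 0.11 (SE), with a 95% interval of -0.13 to 0.35 (limma adjusted p = 0.51), and 0.22 without αKG replicate 3 (limma adjusted p = 0.0204).

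**Figure D2:**
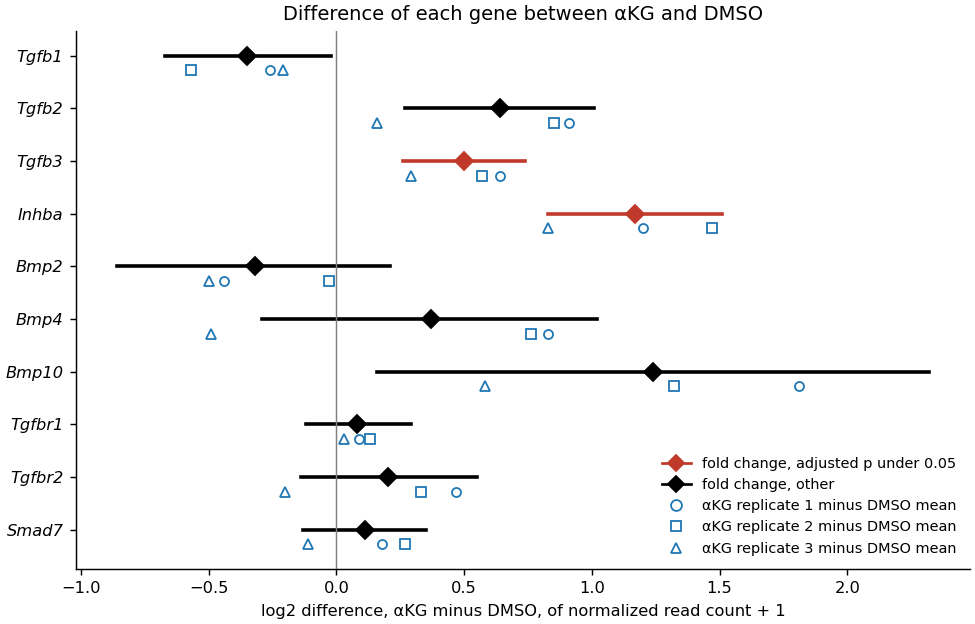
Log2 fold change of each gene between αKG and DMSO (diamonds, with 95% intervals from limma, red where the adjusted p is under 0.05) on the horizontal axis, and below each the difference of the single αKG libraries from the DMSO mean (open symbols). In *Bmp4*, *Tgfbr2* and *Smad7* αKG replicate 3 lay at -0.49, -0.20 and -0.11, on the other side of 0 from replicates 1 and 2.

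The number of genes that passed depended on single libraries. Without αKG replicate 3, 7 of the 10 genes passed, all higher, where 37.2% of all genes passed, 19.3% higher and 17.9% lower. With any other library left out 0 of the 10 passed in limma. In each of these fits 3 or 4 of the 10 had an unadjusted p under 0.05, where 3219 to 3796 of all 20066 genes did. In them 0.758% of all 20066 genes passed without DMSO replicate 1, 0.015% without DMSO replicate 2, 0.0199% without DMSO replicate 3 and 0 genes without αKG replicate 1 or 2, where 3324 and 3244 genes had an unadjusted p under 0.05. *Inhba* and *Tgfb3* both passed with libraries scaled to the same total, quantile normalization, a mean of at least 10 or a pseudocount of 5, where 4.56%, 3.19%, 6.5% and 4.15% of genes passed. *Inhba* alone passed with a pseudocount of 0.1, limma-voom on estimated reads or a replicate block, where 1.72%, 1.8% and 0.229% did. Neither passed without a variance trend or with DMSO replicates 2 and 3 averaged, where 0.135% and 0.0947% did, and 5 of the 10 passed with the first 2 replicates of each group, where 20.2% did. With all libraries 5 of the 10 had an unadjusted p under 0.05, where 28.1% of all genes did; 4 of them were higher and 1 lower, against 15.7% and 12.4%. No gene of the 10 changed direction in any of the alternatives.

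Levels can be compared between genes only per length, and are given as counts per kilobase of exon. The length merges all annotated exons of a gene, such as 5042 bases for *Tgfb1*. The order below and the shares of the 3 TGF-β ligands depend on that choice. In DMSO *Tgfb3* (89.1 ± 4.96) and *Tgfb2* (87.7 ± 2.09, SD, n = 3 each) were highest and overlapped. They were followed by *Bmp4* (77.1 ± 0.926) and *Smad7* (76.0 ± 0.46), which also overlapped, and by *Inhba* (62.2 ± 7.59). *Tgfbr1* (44.1 ± 2.82), *Tgfbr2* (38.9 ± 1.11), *Tgfb1* (25.8 ± 2.41), *Bmp2* (8.91 ± 0.65) and *Bmp10* (0.223 in each library) came next, in an order in which no neighbours overlapped. In αKG *Inhba* reached 142 ± 31.0, *Tgfb2* 140.3 ± 36.5, *Tgfb3* 126 ± 15.8 and *Bmp4* 108 ± 46.1, and these 4 overlapped with each other. *Inhba* thus moved from the fifth place in DMSO to the level of the highest genes.

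**Figure D3:**
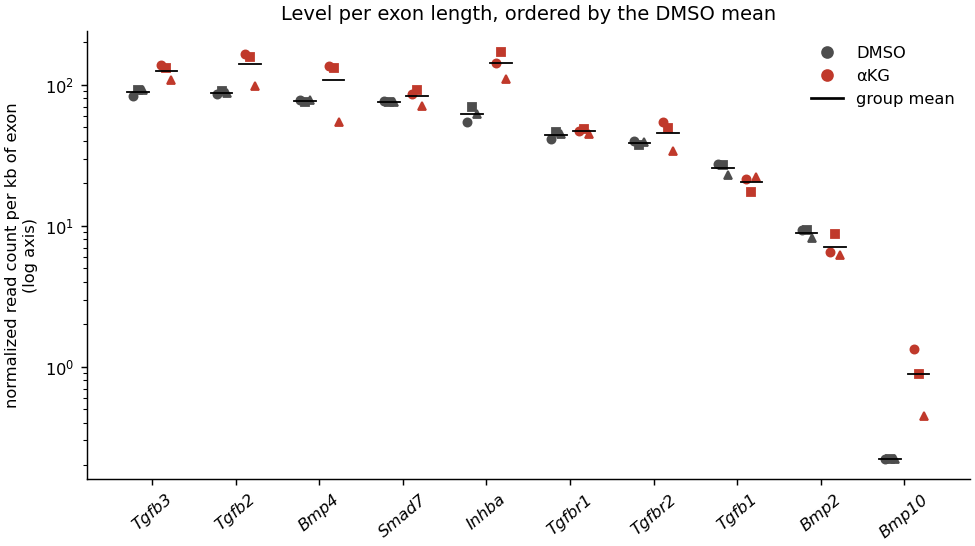
Normalized read count per kilobase of exon (vertical log axis) of the 10 genes, ordered by the DMSO mean, with points for the DMSO (grey) and αKG (red) libraries and lines for group means. *Inhba* lay at 54.8 to 70.0 in DMSO and at 110 to 172 in αKG, and *Bmp10* was under 1.5 in every library.

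Annotated overlaps touched a few of these genes. Genes on the opposite strand shared 2.14% of the exon length of *Tgfb2* (*Gm29491*), 3.96% of *Bmp4* (*Gm15217*) and 4.82% and 7.6% of *Tgfb3* (*Gm37804* and *Gm48008*). Reads of several genes had been left out by the authors, and no source states that strand was used in counting. If strand was not used, reads in the shared bases were credited to neither gene. *Gm29491* was listed apart from *Tgfb2*, at a mean of 1.83.

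Further genes of the pathways were examined in 7 lists written from general knowledge of the pathway, of which 115 genes were in the table. Of these, 9 passed, 7 higher and 2 lower, where 3.78% of all genes passed, 2.83% higher and 0.952% lower, and 5.96% of those with a mean of at least 100. None of the 9 passed in the fits without DMSO replicate 1, 2 or 3 or αKG replicate 1 or 2. In these fits 20 to 31 of the 115 had an unadjusted p under 0.05, where 3219 to 3796 of all 20066 genes did. Without αKG replicate 3, 65 passed, in a fit in which 37.2% of all genes did.

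Among 14 other ligands *Inhbb* alone passed, and the median log2 fold change was 0.23. At an unadjusted p under 0.05, 3 were higher and 1 lower, where 15.7% and 12.4% of all genes were. The ligands with the highest counts, *Bmp7* (213, 222 and 231 in DMSO against 225, 216 and 291 in αKG) and *Gdf11* (95, 107 and 85 against 107, 122 and 118), did not pass. Among 16 other receptors and co-receptors 2 passed, both lower, and the median was -0.09. Unadjusted, 1 was higher and 6 were lower, where 15.7% and 12.4% of all genes were. *Tgfbr3*, or betaglycan, a co-receptor that presents TGF-β2 and binds inhibin, fell from 885, 851 and 836 counts to 485, 477 and 731 (-0.63 ± 0.14 on the log2 scale, adjusted p = 0.0465 by limma). *Eng*, or endoglin, a co-receptor of endothelial cells, fell from 252, 268 and 229 to 192, 172 and 167 (-0.49 ± 0.11 on the log2 scale, adjusted p = 0.0435 by limma). Both were lower in every αKG library, and *Bmpr2* and *Bmpr1a*, BMP receptors with the highest counts of the list, did not pass (log2 fold change 0.09 ± 0.08 and 0.09 ± 0.06).

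Extracellular antagonists with a call were higher. *Bmper*, which binds BMPs outside the cell, had 40, 64 and 39 counts in DMSO and 161, 169 and 104 in αKG (1.59 ± 0.25 on the log2 scale, adjusted p = 0.0173 by limma). *Fstl3*, which binds and blocks activins, had 34, 34 and 33 counts in DMSO and 105, 122 and 63 in αKG (1.44 ± 0.24 on the log2 scale, adjusted p = 0.0248 by limma). Both rose in every αKG library, least in replicate 3. These were 2 of 14 genes, with a median of 0.11 over the list, and *Fstl1* and *Crim1* with the highest counts did not pass. In this list 3 genes were higher and 1 lower by an unadjusted p under 0.05, where 15.7% and 12.4% of all genes were.

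Genes of latency and activation, which hold TGF-β in the matrix or release it, had a median of 0.36 over 20 genes, of which 2 passed. With an unadjusted p under 0.05, 10 were higher and 1 lower, where 15.7% and 12.4% of all genes were. The median was 0.50, 0.46 and 0.10 in αKG replicates 1 to 3, and in each of them another list was higher. *Fbn2*, fibrillin-2, rose from 1707, 1753 and 1549 counts to 2626, 2296 and 1994 (0.46 ± 0.10 on the log2 scale, adjusted p = 0.0385 by limma). *Ltbp3*, which anchors latent TGF-β, rose from 459, 452 and 487 to 845, 671 and 567 (0.56 ± 0.13 on the log2 scale, adjusted p = 0.0468 by limma). *Thbs1*, a TGF-β activator with the highest count of the list, had 2398, 2447 and 2416 counts against 3406, 3312 and 2225 and did not pass. Smads and their intracellular regulators had 0 calls among 18 genes and a median of -0.16. Of this list 6 had an unadjusted p under 0.05, all lower, where 12.4% of all genes were. The ubiquitin ligase gene *Nedd4l* (log2 fold change -0.21 ± 0.08) and the Smad repressor gene *Ski* (-0.01 ± 0.08) had its highest counts. The direction of *Ski* was not stable, and with quantile normalization it was 0.01.

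Of 20 TGF-β target genes 2 passed, both higher, with a list median of 0.30. By unadjusted p under 0.05, 7 were higher and 0 lower, where 15.7% and 12.4% of all genes were. *Ccn2* (connective tissue growth factor) rose from 675, 706 and 696 counts to 1150, 1184 and 805 (0.57 ± 0.13 on the log2 scale, adjusted p = 0.0454 by limma). *Cnn1*, a calponin of smooth muscle, rose from 5, 10 and 12 to 119, 167 and 30 (3.17 ± 0.57 on the log2 scale, adjusted p = 0.0279 by limma). The matrix genes *Fn1* (2561, 2576 and 2499 against 3898, 3704 and 2276) and *Col1a1* (1018, 1006 and 951 against 2402, 2288 and 1042) did not pass. In αKG replicate 3 *Fn1* was below and *Col1a1* just above the DMSO range. Of 13 BMP target genes 0 passed, and the median was -0.28. In this list 4 had an unadjusted p under 0.05, all lower, where 12.4% of all genes were. *Tbx20* (log2 fold change -0.22 ± 0.08) and *Gata4* (-0.24 ± 0.10), cardiac transcription factors with the highest counts there, did not pass.

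**Figure D4:**
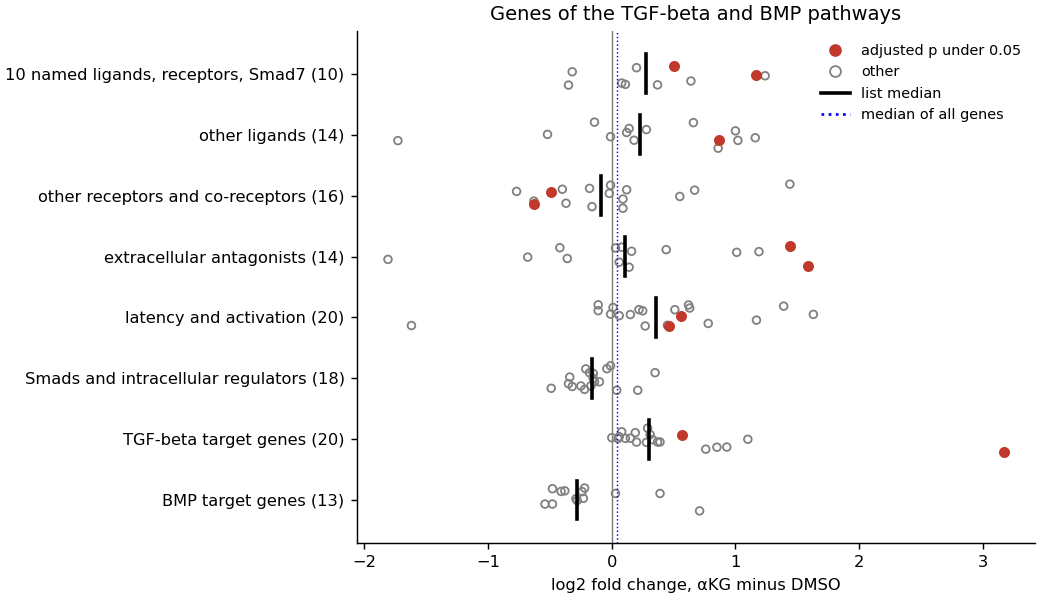
Log2 fold change between αKG and DMSO (horizontal axis) of single genes in the 10 named genes and 7 pathway lists, with the number of genes in brackets; red points passed an adjusted p of 0.05, black lines are list medians and the dotted line the median of all genes, 0.04. The medians lay between -0.28 for BMP target genes and 0.36 for latency and activation.

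Of the markers of other cell types, the endothelial list separated the groups in its summed count, and its part in the results above was not tested. In such bulk samples fewer cells of a type and less RNA per cell cannot be told apart. Of 10 endothelial markers 8 were lower in αKG and passed, where 0.952% of all genes passed lower. Among them were *Cdh5* (519, 442 and 518 against 222, 195 and 316) and *Kdr* (393, 364 and 371 against 153, 128 and 253). *Cdh5* and *Kdr* each passed in only 1 of the fits with a library left out, with limma adjusted p up to 0.255. *Tek* (65, 71 and 58 against 115, 96 and 54) had a higher mean in αKG, and it and the low *Cldn5* did not pass. The summed count of the list was 1585 to 1756 in DMSO and 719 to 1054 in αKG, and the fall of *Eng* stands beside it. Of 10 fibroblast markers 0 passed in limma, with sums of 2556 to 2684 in DMSO and 2600 to 4540 in αKG. Of 10 epicardial markers 0 passed, with sums of 492 to 516 and 464 to 1318. An unadjusted p under 0.05 was found for 5 fibroblast and 2 epicardial markers, all higher, where 15.7% of all genes were. In both lists αKG replicates 1 and 2 were high, whereas replicate 3 lay within the DMSO range of the fibroblast sum and below that of the epicardial sum. Without αKG replicate 3, 6 of the fibroblast and all 10 epicardial markers passed, higher in αKG, where 19.3% of all genes passed higher and 17.9% lower. In the same fit 6 of 12 cardiomyocyte markers passed higher and 1 lower, and 3 of 8 mural markers higher and 1 lower. Of the endothelial markers 1 passed higher and 8 lower. This is also the fit in which *Inhba*, *Tgfb2*, *Tgfb3*, *Bmp4*, *Bmp10*, *Tgfbr2* and *Smad7* passed, and 37.2% of all genes did.

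*Inhba* and *Tgfb3* were higher in αKG replicate 3 too, by 0.83 and 0.29 on the log2 scale. In that library the median shift of fibroblast markers was 0.02 and that of epicardial markers -0.64. Single fibroblast markers there ranged from -0.64 (*Tcf21*) to 1.14 (*Mfap5*), and epicardial markers from -2.5 (*Muc16*) to 0.59 (*Krt19*). The part of fibroblast and epicardial cells in the results above was not tested either. Of 8 mural markers 1 passed, *Cspg4*, which was higher, with sums of 3117 to 3226 in DMSO and 3159 to 3618 in αKG. Macrophage markers were near 0, with sums of 22 to 35 and 24 to 41 over 4 genes, and 0 passed, adjusted or not. *Csf1r* was at 0 to 6. Of 12 cardiomyocyte markers 0 passed. Unadjusted, 4 were higher and 1 lower, where 15.7% and 12.4% of all genes were. The median was 0.10, and sums were 79393 to 82010 in DMSO and 83986 to 115923 in αKG. Most of these sums was the titin gene *Ttn*, with 51569 to 54216 counts in DMSO and 55569 to 84136 in αKG, which did not pass. Defining markers of fibroblasts (*Pdgfra*, *Tcf21*, *Dcn*), endothelial cells (*Cdh5*, *Kdr*) and cardiomyocytes (*Tnnt2*) were above 0 in every library. Low markers that were at 0 in at least 1 library were *Mfap5* and *Pi16* of fibroblasts, *Cldn5* of endothelial cells, *Muc16* of epicardium, *Kcnj8* and *Ndufa4l2* of mural cells, and *Csf1r*.

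**Figure D5:**
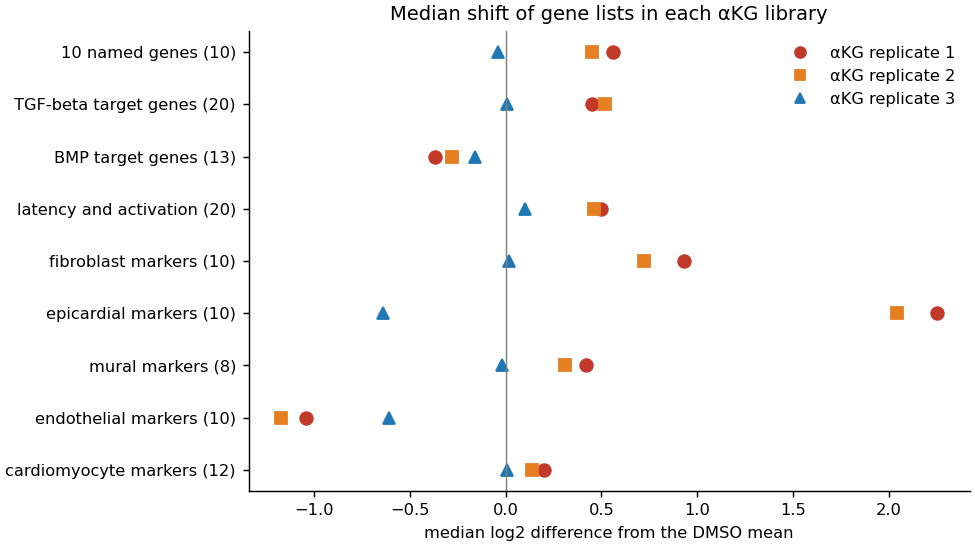
Median log2 difference of gene lists from the DMSO mean (horizontal axis) in each αKG library, with the number of genes in brackets. In αKG replicate 3 (triangles) the 10 named genes lay at -0.04 and epicardial markers at -0.64, where replicates 1 and 2 had 0.56 and 0.45 and 2.25 and 2.04, and endothelial markers lay below 0 in all 3.

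The genes with the pattern most like that of *Inhba* and *Tgfb3* were looked up among 8294 genes with a mean of at least 100. For *Inhba* these were *Pwwp3b*, *Asph* and *Ralgapa1*, with Pearson correlations of 0.9958, 0.9938 and 0.9933 over the 6 libraries. For *Tgfb3* they were *Zfhx3*, *Six4* and *Syne1*, with 0.9974, 0.9964 and 0.9961. The points share the libraries and their grouping, and 197 and 258 genes correlated with *Inhba* and *Tgfb3* above 0.95. *Asph*, with 1383, 1475 and 1477 counts in DMSO and 1819, 1893 and 1662 in αKG, shows this shape, in which αKG replicate 3 lies above the DMSO libraries and below the other αKG libraries.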

How the data were processed

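According to the study's methods, the authors used Trimmomatic for trimming, STAR for alignment to the mouse genome (mm10, GRCm38.p5 in the processing notes) and featureCounts for summing reads by gene, admitting a read that touched an exon and dropping any that hit more than 1 gene or locus, followed by DESeq2. The submitters' processing notes also name Picard, without its role. The deposited values are named a score, because the authors had scaled the counts of each library by its size factor and then rounded to whole numbers. They are normalized counts and no raw counts, so DESeq2 was not run on them. The value of 1 read, 0.9259 to 1.1188, was estimated from the spacing of the values, and in simulated data 20 of 20 factors were recovered with errors up to 0.011%. The exact interval of *Bmp10* covers counting error only, whereas the intervals from limma rest on the spread between libraries.

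All 6 libraries entered 1 limma 3.58.1 fit (R 4.3.3) on log2(value + 1), with treatment as its only term, a variance trend and Benjamini-Hochberg adjustment over 20066 genes. The pseudocount understates changes of low genes. In simulated data, 160 of 200 genes changed 2-fold were called, with 1 false call. That simulation used 1 dispersion (0.00349) for all genes and held no library like αKG replicate 3. Its rates therefore need not hold for these libraries. Positions are those of the table, 98.95% identical to GENCODE M21, which gave exon lengths. Of the 10 genes, 7 had a RefSeq promoter that was searched.

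The members and lists were chosen with earlier results of these data known. The text names the 10 genes; from each pathway list up to 4 that passed (mean 20 or more) and the 2 most abundant; from each marker list the 2 most abundant, where a value is needed; and the 3 genes best correlated with each member that passed. *Inha*, *Tnnt2*, *Mki67*, *Csf1r*, *Tek* and the other markers given as at or above 0 were added after their values were seen. Alternatives were scaling, a filter on low values, pseudocounts, no variance trend, limma-voom on estimated reads, a replicate block, averaged libraries and each library left out. Python 3.11.15 was used for reading and plots.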

Additional observations from a re-analysis of the deposited data

How the results depend on the processing

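With all libraries, 759 genes, 2 of the 10 members and 9 of 115 pathway genes passed. Leaving out 1 library gave 0 to 7466 genes, 0 to 7 members and 0 to 65 pathway genes, each highest without αKG replicate 3. A fit of the first 2 replicates of each group, chosen after seeing the data, gave 4047, 5 and 42, and an unadjusted p under 0.05 gave 5648, 5 and 43. A pseudocount of 0.1 gave 346, 1 and 3, and limma-voom on estimated reads 362, 1 and 2. Limma without a variance trend gave 27, 0 and 0, and DMSO replicates 2 and 3 averaged, a fit with fewer samples, 19, 0 and 0. In these last 2 fits 4 and 3 members and 23 and 31 pathway genes had an unadjusted p under 0.05. Among all 20066 genes 4160 and 3518 did. Replicate numbers are shared between groups, and with the replicate block 46 genes, 1 member (*Inhba*, limma adjusted p = 0.039) and 1 pathway gene passed. Same-numbered libraries deviated from their group means with correlations of -0.035, 0.057 and 0.017. Because αKG replicate 3 stood apart from its group, these values cannot decide whether same-numbered libraries came from 1 isolation.

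Across 159 recomputed log2 fold changes of members (*Bmp10* drops out with a mean of at least 10), a call disappeared in 17 and appeared in 8, and 0 reversed; of 799 values of members and other named genes, 130 lost, 52 gained and 7 reversed. Those were uncalled: with quantile normalization *Ski* was 0.01 and *Ryr2* -0.12, and over the fits without 1 library *Bmp7* ranged from -0.01 to 0.20, *Ski* from -0.08 to 0.04 and *Mrc1* from -0.33 to 0.08. The cause of these changes was not tested. The variants with edgeR and DESeq2 were not run, since the values are not counts. Depth limits *Bmp10*, with 3 reads in DMSO, and *Bmp2*.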

Other observations

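Some pathway genes that did not pass were higher in αKG replicates 1 and 2 than in replicate 3; they were chosen after their values were seen. *Lrrc32*, which displays latent TGF-β on the cell surface, had 15, 18 and 14 counts in DMSO against 95, 77 and 17 in αKG (1.63 ± 0.54 on the log2 scale, adjusted p = 0.0986 by limma). *Ltbp4*, a latent TGF-β binding protein, had 40, 44 and 42 against 154, 126 and 45, and *Itgb6*, whose integrin releases TGF-β, had 94, 98 and 63 against 308, 294 and 119. The BMP ligand genes *Bmp3* (53, 49 and 39 against 146, 144 and 55) and *Gdf6* (70, 73 and 83 against 155, 183 and 60) were likewise highest in αKG replicates 1 and 2. *Lox*, a matrix cross-linking enzyme gene, had 364, 339 and 329 counts in DMSO and 1038, 1072 and 255 in αKG. *Itgb6*, *Ltbp4* and *Bmp3* were above every DMSO library also in αKG replicate 3. In that library *Gdf6* and *Lox* lay below every DMSO library.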
